A study of Mus musculus with 63 samples.

Results

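The Ube2 genes encode ubiquitin-conjugating enzymes (E2s), the middle enzymes of the ubiquitin pathway. All 37 symbols that start with Ube2 and are annotated as protein coding were taken, of 55291 gene symbols counted. An activating enzyme (E1) loads ubiquitin onto the cysteine of an E2, and the E2, with a ligase (E3), passes it to a substrate. The E2 helps to decide what is built: single ubiquitins, chains read as a signal for the proteasome, or chains used in signalling, and a few E2s carry NEDD8, ISG15 or another modifier in place of ubiquitin. In neurons the pathway is known for the turnover of synaptic proteins. The name does not make every member an active E2: Ube2v1 and Ube2v2 lack the active cysteine and work as partners of Ube2n, and Ube2cbp is an E2C-binding protein.

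The libraries came from mouse entorhino-hippocampal tissue cultures, brain slices that keep the entorhinal input to the hippocampus, prepared at postnatal day 3 to 5 from animals of either sex and matured for at least 18 days. Wildtype cultures (Synpo+/+) were C57BL/6J, and Synpo-/- cultures came from the strain B6.129-Synpo tm1Mndl/Dllr. Synaptopodin is an actin-associated protein of the spine apparatus. Lesioned cultures had their entorhinal input cut (entorhinal cortex lesion, ECL) and were collected 3 days later. In the regional experiment each library was 1 dentate gyrus (DG) or 1 CA3 area of 1 culture: Synpo+/+ CA3 with 2 control and 3 ECL libraries, Synpo+/+ DG with 4 and 7, Synpo-/- CA3 with 6 and 6 and Synpo-/- DG with 7 and 4. In the co-immunoprecipitation (coIP) experiment, 6 cultures were pooled per replicate, and RNA bound with synaptopodin antibody was sequenced beside the lysate (input): 5 coIP and 5 input libraries from control Synpo+/+ cultures, 5 and 5 from ECL Synpo+/+ cultures, and 2 and 2 labelled Synpo-/-, for which the labels name no lesion. Which animal a culture came from is not given, so p-values measure the spread between these samples only, and in bulk RNA fewer cells of a type cannot be told apart from less RNA per cell.

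Library totals ran from 11601154 to 53682143 counts. Counts of the targeted gene did not set the genotypes apart as labelled: Synpo was 51.8 ± 9.31 CPM (counts scaled to library size; SD, n = 7) in Synpo-/- DG control against 22.5 ± 2.36 (n = 4) in Synpo+/+ DG control, so the genotype is given below as labelled. Region labels were checked against 8 granule cell markers, of which 6 to 8 were called higher in DG in each of the 4 comparisons. A single library went against its label. In Synpo+/+ DG ECL replicate 5 the granule cell marker Prox1 was 15.5 CPM, against 169.6 to 217 in the other 6 libraries of its group and 12.7 to 17.2 in the CA3 ECL libraries, and its 8 CA3 pyramidal markers summed to 715 CPM against 229 to 282. The main counts of called members that include it are given with and without it. Calls of markers and of other pathway genes are given with it only. A change was called at an adjusted p under 0.05 (Benjamini-Hochberg) in edgeR's quasi-likelihood test over all genes tested, and fold changes are on the log2 scale with their standard error (SE).

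Most of the family fell in the coIP, where Ube2o rose. Several members were lower in DG, among them Ube2j1 and Ube2ql1, and Ube2c and Ube2l6 rose after the lesion. The bases before the starts of Ube2c and Ube2l6 are shown because these were the members that rose in most lesion comparisons. They are from RefSeq (GRCm38.p6), plus strand, 5′ to 3′, and capitals mark CCAAT boxes, read on both strands (CCAAT and its complement ATTGG, which overlap in 1 place). Ube2c, which lies at chr2:164769898-164778822, is shown over the 219 bases at chr2:164769679-164769897, and Ube2l6, at chr2:84798828-84810335, over the 250 bases at chr2:84798578-84798827.
Ube2c: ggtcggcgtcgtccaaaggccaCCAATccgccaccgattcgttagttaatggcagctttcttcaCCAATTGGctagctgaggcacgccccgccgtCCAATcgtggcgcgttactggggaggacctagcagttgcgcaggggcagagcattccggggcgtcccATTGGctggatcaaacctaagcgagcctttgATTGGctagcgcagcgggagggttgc
Ube2l6: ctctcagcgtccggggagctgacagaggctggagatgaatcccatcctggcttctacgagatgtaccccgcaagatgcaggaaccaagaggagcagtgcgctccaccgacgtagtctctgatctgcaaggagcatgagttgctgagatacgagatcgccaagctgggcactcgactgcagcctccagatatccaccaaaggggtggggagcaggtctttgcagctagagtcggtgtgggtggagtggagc

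The Ube2c stretch held 6 matches of CCAAT and the Ube2l6 stretch none. Over 250 bases before the start, CCAAT was present in 33.85% of 32851 RefSeq promoters and in 21.95% of 41 promoters of Ube2 genes (30 of the 37 members had an entry). The letters TTTGAA, known as the cell cycle homology region, were found in 15.99% of all promoters and 9.756% of Ube2 promoters, among them once in the 31 bases of the Ube2c window that follow the stretch shown. GC boxes (GGGCGG, both strands) were in 32.74% of all promoters and in 65.85% of Ube2 promoters. These are matches of letters, with no test.

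Expression levels spanned more than 2 orders of magnitude. Per kilobase of exon, in the 5 control Synpo+/+ inputs, Ube2b, an E2 of histone ubiquitination and DNA damage tolerance, was the highest at 271 ± 23.0 CPM per kb (SD, n = 5), followed by Ube2n, which builds K63-linked chains, at 126 ± 8.67. The ranges of neither overlapped with that of the next gene. Ube2l3, the partner of RBR and HECT ligases, Ube2g2, of endoplasmic reticulum degradation, and Ube2w, which modifies N-termini, came next at 55.0 ± 2.75, 52.7 ± 3.31 and 51.2 ± 9.02 CPM per kb, and their ranges overlapped. Then came a run of members without a gap, from Ube2a at 39.3 ± 3.28 to Ube2e1 at 22.4 ± 3.10 CPM per kb, which included Ube2h, Ube2l6, Ube2k and Ube2j1. At the low end stood the cell cycle E2s Ube2s at 1.10 ± 0.0956 and Ube2c at 0.851 ± 0.307 CPM per kb, which work with the anaphase-promoting complex. Ube2u and Ube2v1 were lower still, at 0.385 ± 0.214 and 0.344 ± 0.109. Of the Ube2v1 exon bases, 69.1% are shared with other genes, among them Gm20431, which had no count in any library, so its level is uncertain. Ube2dnl1 and Ube2dnl2 had at most 4 counts in any library and were not tested, and Ube2d2b and Ube2v1 were too low in 4 and 10 of the 19 comparisons.

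**Figure D1:**
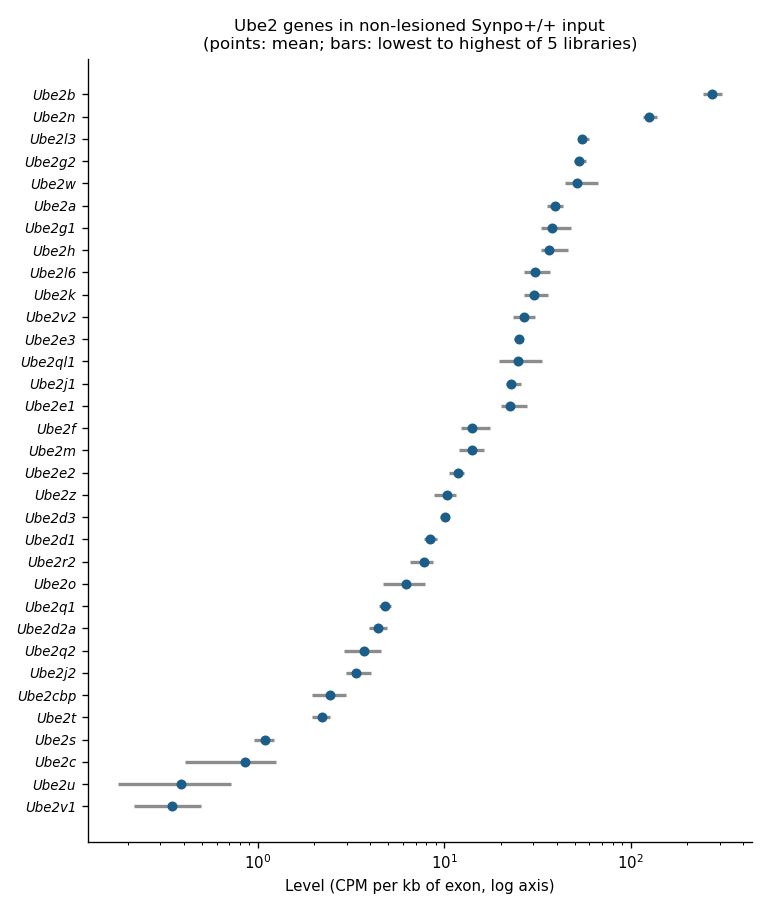
Level of 33 Ube2 genes in the 5 control Synpo+/+ input libraries, in CPM per kilobase of exon on a log axis. Points are means and bars run from the lowest to the highest library; Ube2b at 271 and Ube2n at 126 stand apart from the rest.

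The coIP comparison asks which transcripts are enriched with synaptopodin. The Ube2 transcripts were, as a group, depleted. Summed over all members, they made up 3967 ± 256 CPM of the control inputs (SD, n = 5) and 2091 ± 159 CPM of the control coIP libraries (n = 5), 3897 ± 115 against 1952 ± 280 after ECL (n = 5 each), and 3779 ± 168 against 1990 ± 204 in the libraries labelled Synpo-/- (n = 2 each). In none of the 3 sets did the ranges overlap.

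In control Synpo+/+ cultures 34 members were tested and 25 were called, 24 lower and 1 higher in the coIP, where 55.0% of 18222 genes were called, 29.6% higher and 25.5% lower. After ECL, 25 members fell and 1 rose of 34, where 58.3% of all genes were called, 30.5% higher and 27.8% lower. In the libraries labelled Synpo-/-, 21 fell and 1 rose of 35, where 31.4% of genes were called, 15% higher and 16.4% lower. The median log2 fold change of the members was -0.79, -0.81 and -0.72, and that of all genes tested 0.04, 0.02 and 0.02. The same 20 members fell in all 3 sets. DESeq2 called 25, 27 and 22 members, and 10318, 10994 and 6467 of all genes. Neither test paired coIP with input of the same lysate. Pairing them in edgeR added members in each set and removed none.

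Ube2n gives the pattern by library. It was 489 to 585 CPM in the 5 control inputs and 176 to 267 CPM in the 5 control coIP libraries, 518 to 594 and 140.0 to 269 CPM after ECL, and 375 and 418 against 187 and 152 CPM in the libraries labelled Synpo-/-. Each coIP library lay below each input library. The log2 fold changes were -1.26 (SE 0.10, edgeR adjusted p = 4.56e-07), -1.35 (SE 0.15, adjusted p = 8.09e-06) and -1.26 (SE 0.15, adjusted p = 0.000232). Ube2v2, its partner in K63 chains, fell by 1.36, 1.46 and 1.31. Reads of the pseudogene Ube2n-ps1, with at most 140 counts in a library, could be confused with Ube2n.

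The chromatin and repair E2s fell as well. Ube2b had the lowest p in the control set, with a log2 fold change of -1.38 (SE 0.09, edgeR adjusted p = 2.07e-07), with -1.46 after ECL (SE 0.11, adjusted p = 1.47e-06) and -1.37 in the libraries labelled Synpo-/- (SE 0.14, adjusted p = 0.000183). After ECL the next by p were Ube2w (-1.41), Ube2a (-1.36) and Ube2g2 (-0.95). The control values of Ube2b were 521 to 652 CPM in input and 190.0 to 243 CPM in coIP. Its close homolog Ube2a was at 80.3 to 98.4 CPM in the control inputs and 28.0 to 41.5 CPM in the control coIP (log2 fold change -1.37, SE 0.11, edgeR adjusted p = 4.98e-07). Ube2t, the E2 of the Fanconi anaemia pathway, went from 9.46 to 11.8 CPM in input to 4.46 to 7.07 CPM in coIP and fell in all 3 sets, with log2 fold changes of -0.82, -0.76 and -0.85.

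Among the E2s that start chains, Ube2d1, Ube2d3, Ube2e1, Ube2e2, Ube2e3 and Ube2w fell in all 3 sets. Ube2w fell furthest, by 1.35 (SE 0.14, edgeR adjusted p = 2.26e-06) in the control set. Ube2d2a, a near copy of Ube2d3 in protein sequence, was not called in any, with log2 fold changes of -0.20, -0.24 and -0.31, but with input and coIP paired by lysate it was called lower after ECL (-0.25, edgeR adjusted p = 0.0347). With the trend of fold change on gene length removed, Ube2d2a was called lower in all 3 sets, at -0.61, -0.66 and -0.59. Of the E2s for K48-linked chains and endoplasmic reticulum degradation, Ube2g1, Ube2g2, Ube2j1 and Ube2k fell in each set. Ube2k was 211 to 285 CPM in the control inputs and 104 to 117 CPM in the control coIP, with no overlap (log2 fold change -1.11, SE 0.09, edgeR adjusted p = 5.59e-07). Ube2j2 and Ube2r2, the partner of cullin ligases, were not called: their values ran from -0.18 to 0.04 over the 3 sets.

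Among the E2s of ubiquitin-like proteins, the NEDD8 E2s Ube2f and Ube2m and the ISG15 E2 Ube2l6 fell in each set. Ube2m, at -0.49, -0.41 and -0.51, moved least, and its control libraries ran from 28.3 to 38.5 CPM in input and 20.6 to 26.0 CPM in coIP. With the trend of fold change on gene length removed, the Ube2m value after ECL turned to 0.034 (edgeR adjusted p = 0.825), and its calls in the other sets were lost, at -0.11 and -0.28. Ube2z, loaded by Uba6, was not called, at -0.14, -0.11 and -0.22. Ube2l3 fell by 1.00, 1.21 and 1.21, from 310.0 to 349 CPM in the control inputs to 131 to 173 CPM in the control coIP. Exon bases of Ube2l3, Ube2c and Ube2e1 overlap genes on the other strand by 28.6%, 22.8% and 16.1%, and the counting did not use strand.

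Ube2o was the exception. It codes for a large E2 that also acts as its own ligase, and it lies at chr11:116537740-116581447. It was 24.7, 34.2, 31.9, 32.1 and 41.5 CPM in the 5 control inputs and 60.7, 60.8, 80.1, 64.8 and 76.8 CPM in the coIP libraries of the same replicates. After ECL it was 20.9 to 31.5 CPM in input and 46.1 to 99.9 CPM in coIP, and in the libraries labelled Synpo-/- 35.4 and 28.7 CPM against 53.2 and 52.4. In all 3 sets each coIP library was above each input library. The log2 fold changes were 1.08 (SE 0.13, edgeR adjusted p = 8.49e-06), 1.33 (SE 0.19, adjusted p = 4.41e-05) and 0.68 (SE 0.15, adjusted p = 0.00513). Ube2q1, another E2 with a long N-terminal part, was not called, at 0.10, 0.14 and 0.04.

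**Figure D2:**
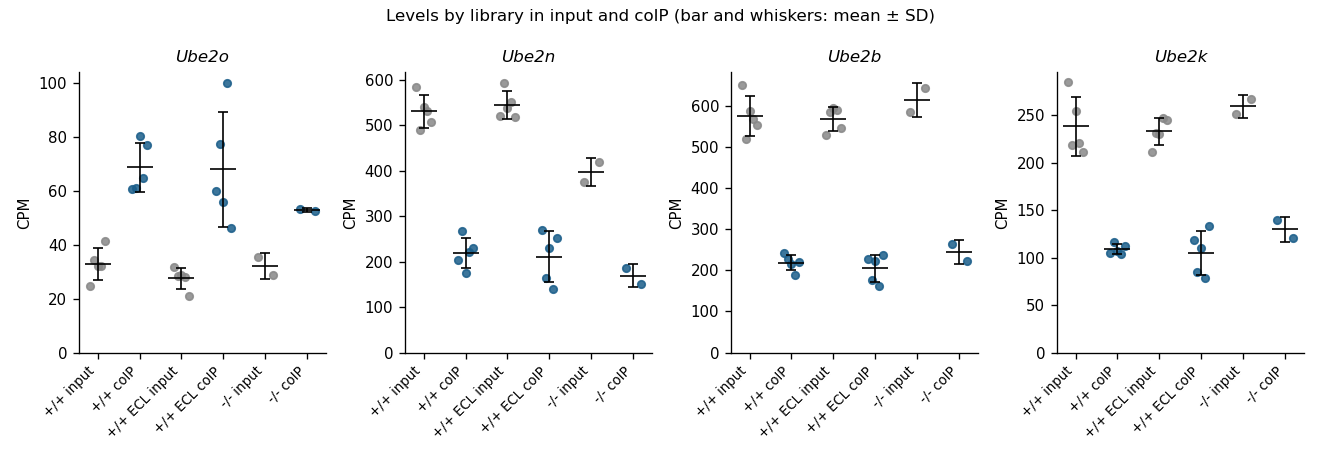
Ube2o, Ube2n, Ube2b and Ube2k in CPM, by library, in input (grey) and coIP (blue) for control Synpo+/+, ECL Synpo+/+ and the libraries labelled Synpo-/- (5, 5 and 2 of each); bars and whiskers give mean ± SD. Ube2o is higher in each coIP library than in each input of its set, and the other 3 genes are lower.

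The members' place in this order went with their coding length and with their exon GC content. The longest coding sequence was 3864 bases for Ube2o and 435 to 1266 for the others. Over 34 members, Pearson's r between coding length and the control log2 fold change was 0.71 (Spearman's rho 0.48), and without Ube2o it was 0.47 (rho 0.43, 33 members). With Ube2o included, r for coding length was 0.74 and 0.65 in the other 2 sets, and without it 0.52 and 0.55. For exon GC content r was 0.60 in the control set (rho 0.57), and 0.54 without Ube2o (rho 0.53). In the other 2 sets r for GC content was 0.54 and 0.45, and without Ube2o 0.45 and 0.35. These values describe genes of the same libraries, not replicates. The whole exon length of a gene gave r = 0.08.

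**Figure D3:**
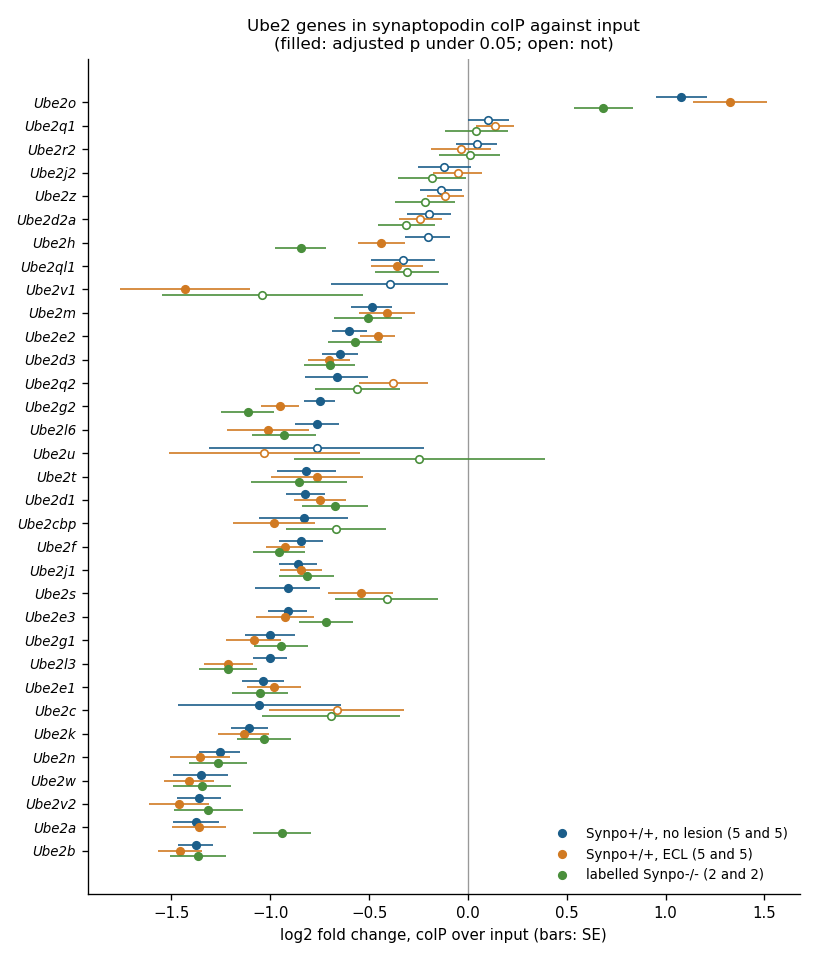
Log2 fold change of coIP over input for 33 Ube2 genes tested in control Synpo+/+ (blue), with the same genes in ECL Synpo+/+ (orange) and the libraries labelled Synpo-/- (green); bars are SE and filled points have an adjusted p under 0.05. Ube2o lies at 1.08, 1.33 and 0.68, and the most depleted genes near -1.4.

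The depletion was not shown to depend on the genotype label. The difference between the libraries labelled Synpo-/- and control Synpo+/+ in coIP over input, tested as an interaction, was called for 0 of 34 members (edgeR; 3 at an unadjusted p under 0.05; 0 by DESeq2) and for 0 of 20621 genes (0.0%). Its values ran from -0.59 to 0.58 with a median of 0.04, and for Ube2o it was -0.34 (SE 0.23, edgeR adjusted p = 0.807). The Synpo-/- set had 2 libraries of each kind, of 42886994 to 53682143 counts, against 12888443 to 26730691 counts in the control Synpo+/+ set, and the part of depth was not tested.

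Other parts of the pathway did not all move this way. Over all genes, 29.6% rose and 25.5% fell in the control coIP and 30.5% and 27.8% after ECL. In the libraries labelled Synpo-/- 15% rose and 16.4% fell. The list counts below were not tested against these shares. Of 12 genes for ubiquitin and ubiquitin-like proteins, 10 fell and 1 rose in the control coIP, with Sumo2 at -1.33 and Nedd8 at -1.40, and 11 fell after ECL and 8 in the libraries labelled Synpo-/-. Of 30 ligases, 12 rose and 5 fell in the control coIP, 13 and 5 after ECL, and 4 and 3 in the libraries labelled Synpo-/-. The HECT ligases Huwe1 (1.20, SE 0.07, edgeR adjusted p = 2.02e-07) and Ube3a (0.91, SE 0.08, adjusted p = 7.65e-07) rose, and the small RING subunit Rbx1 fell by 1.22. Of 8 E1 genes 2 rose, among them Uba1 (0.70), and 3 fell, among them Sae1 (-0.80). Of 19 deubiquitinases 5 rose and 9 fell, with Usp7 at 0.74 and Uchl1 at -0.85. Among 6 E2s under other names, Birc6, a very large E2 that inhibits apoptosis, rose (0.97, SE 0.08, edgeR adjusted p = 4.56e-07), while Ufc1, the E2 for UFM1, fell by 1.09.

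Cell type markers were set beside these values. Summed over 9 neuron markers, the control inputs held 8103 to 9619.5 CPM and the control coIP libraries 4974 to 6326 CPM, but by gene 3 rose and 2 fell. Of 14 microglia markers 1 rose and 6 fell, and of 10 astrocyte markers 3 rose. Their part in the fall of the Ube2 genes was not tested.

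The regional comparison asks how DG and CA3 differ. Where Ube2 genes were called they were lower in DG, with 1 exception, and most members were not called. The largest count was in Synpo-/- control, with 7 DG and 6 CA3 libraries, where 13 members were lower and 1 higher in DG of 34 tested and 25.5% of 21408 genes were called, 13.1% higher and 12.5% lower. The members' median log2 difference, DG minus CA3, was -0.19, against 0.05 for all genes. In Synpo+/+ control, with 4 DG and 2 CA3 libraries, 3 of 34 members were lower (5.39% of genes called, 2.63% higher and 2.75% lower), and the median was -0.19. These 3, Ube2j1, Ube2q1 and Ube2ql1, were among the 13. Their Synpo+/+ calls were lost on leaving out CA3 replicate 1 or 2 or DG replicate 3, and on leaving out DG replicate 1 or 4 only 1 held, Ube2ql1 or Ube2q1 respectively.

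Ube2j1, an E2 of the endoplasmic reticulum membrane, was called in both control sets. In Synpo+/+ control it was 32.6 to 41.1 CPM in the 4 DG libraries and 54.8 and 53.2 CPM in the 2 CA3 libraries (log2 difference -0.51, SE 0.14, edgeR adjusted p = 0.0482). In Synpo-/- control it had a lowest, median and highest of 33.1, 38.0 and 44.7 CPM in DG and 56.8, 65.5 and 76.1 CPM in CA3. DG and CA3 did not overlap in either genotype, and the Synpo-/- difference was -0.65 (SE 0.08, edgeR adjusted p = 4.18e-06).

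Ube2ql1, an E2-like gene, followed the same pattern, at 60.7 to 83.3 CPM in DG and 109 and 124 CPM in CA3 of Synpo+/+ control (log2 difference -0.65, SE 0.15, edgeR adjusted p = 0.0221). Ube2q1 was called in both control sets, at -0.55 (SE 0.13, edgeR adjusted p = 0.023) and -0.30 (SE 0.09, adjusted p = 0.0205). Ube2g2 and Ube2e2 were called in Synpo-/- control, at -0.75 (SE 0.15, edgeR adjusted p = 0.00098) and -0.52 (SE 0.08, adjusted p = 4.15e-05), and Ube2n was 169 to 255 CPM in DG and 267 to 371 CPM in CA3 there, without overlap (-0.50, SE 0.10, edgeR adjusted p = 0.000859). The others called lower were Ube2a, Ube2f, Ube2h, Ube2k, Ube2l3, Ube2l6 and Ube2m, at -0.23 to -0.58. Ube2t was the member called higher, at 12.0 to 23.9 CPM in DG and 8.36 to 17.6 CPM in CA3, which overlap (0.67, SE 0.16, edgeR adjusted p = 0.00451).

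After ECL the count depended on 2 libraries. In Synpo+/+ ECL, 0 of 35 members were called with all libraries (edgeR; 13 at an unadjusted p under 0.05; 0 by DESeq2), where 2.05% of 24029 genes were called, 1.54% higher and 0.508% lower. Without DG replicate 5, the library with CA3-like markers, 16 of 35 were lower and none higher, where 19.8% of 23965 genes were called, and the median was -0.31. Ube2j1 is an example: 6 of the 7 DG libraries were at 39.1 to 58.0 CPM and replicate 5 at 74.1 CPM, against 66.9, 67.2 and 74.6 CPM in CA3, and its difference was -0.42 (edgeR adjusted p = 0.154) with that library and -0.56 (SE 0.11, edgeR adjusted p = 0.00173) without. Ube2ql1 went from -0.53 to -0.73 and Ube2n from -0.45 to -0.63.

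In Synpo-/- ECL, 3 of 34 members were lower in DG (13.6% of genes called, 7.37% higher and 6.24% lower): Ube2ql1 (-0.65, SE 0.13, edgeR adjusted p = 0.00321), Ube2j1 (-0.43, SE 0.10, adjusted p = 0.00677) and Ube2q2 (-0.41, SE 0.13, adjusted p = 0.0456). Without CA3 replicate 6 there were 11 of 34 (22.1% of genes called). That library was low in several members: Ube2n was 182 CPM there and 335 to 408 CPM in the other 5 libraries, and its 9 neuron markers summed to 5169 CPM against 8011 to 9201. Of the 13 members lower in Synpo-/- control, 10 were among the 16 of Synpo+/+ ECL without its DG replicate 5, which is 76.9% of the first list and 62.5% of the second. The cultures of these lists differ in genotype and lesion.

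**Figure D4:**
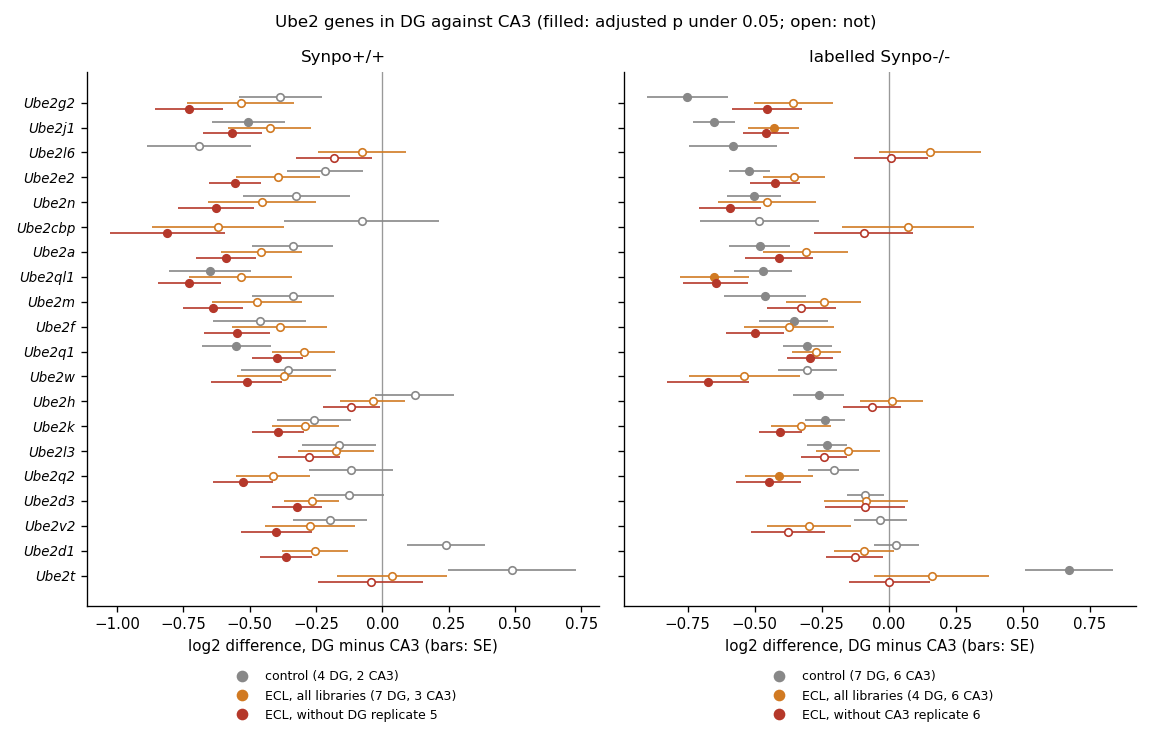
Log2 difference DG minus CA3, with SE, for 20 Ube2 genes called in Synpo-/- control or in Synpo+/+ ECL without DG replicate 5, in Synpo+/+ (left) and in the libraries labelled Synpo-/- (right). Grey is control, orange ECL with all libraries, red ECL without the library named; filled points have an adjusted p under 0.05, and Ube2j1 lies between -0.42 and -0.65 in all 6.

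Cell type markers differed between the regions. The 9 neuron markers summed to 3887 to 5816 CPM in Synpo-/- DG control and 7713 to 9563 CPM in CA3 control, without overlap, 5 of the 9 were called lower in DG, and their median difference was -0.48. Oligodendrocyte markers summed to 535 to 1532 CPM in DG and 1819 to 2921 CPM in CA3, and 10 of 11 were called lower. By contrast, 8 of 8 granule cell markers and 5 of 8 interneuron markers were called higher in DG, and 7 of 8 CA3 pyramidal markers lower. The part of these cell types in the lower Ube2 levels was not tested. Among the other pathway lists in Synpo-/- control, 7 of 19 deubiquitinases were lower and 1 higher, with Usp46 at -0.79 and Uchl1 at -0.75, and 5 of 30 ligases were lower and 2 higher. Over all genes there, 12.5% were lower and 13.1% higher in DG, and the list counts were not tested against these shares.

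The lesion comparison asks what changes after partial denervation. In Synpo+/+ DG, 5 of 34 members rose and none fell, where 12.2% of 23720 genes were called, 7.86% higher and 4.31% lower. The members' median log2 fold change was 0.24 against -0.00 for all genes. In Synpo+/+ CA3 1 of 34 rose (1.78% of 22340 genes called, 1.5% higher), in Synpo-/- DG 3 rose and 1 fell of 34 (8.53% of genes called, 5.17% higher and 3.36% lower), and in the Synpo+/+ inputs 2 of 34 rose (5.61%, with 2.45% higher and 3.16% lower). In Synpo-/- CA3 0 of 34 were called (edgeR; 2 at an unadjusted p under 0.05; 0 by DESeq2), where 0.077% of genes were called, 0.053% higher and 0.0241% lower. Leaving out DG replicate 5 kept the count at 5 in Synpo+/+ DG, where 13.8% of 23605 genes were then called. The members' median was then 0.17.

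Ube2c, which drives mitotic exit with the anaphase-promoting complex, was called in 4 of the 5 lesion comparisons. In Synpo+/+ DG it was 2.26, 2.22, 2.17 and 2.41 CPM in control and had a lowest, median and highest of 4.499, 6.42 and 10.3 CPM after ECL. The groups did not overlap, and the log2 fold change was 1.60 (SE 0.21, edgeR adjusted p = 0.000369). Without ECL replicate 5 the change of Ube2c was 1.56 (SE 0.21, edgeR adjusted p = 0.000195). In Synpo+/+ CA3 it was 2.10 and 2.21 CPM in control and 5.59, 6.79 and 8.65 CPM after ECL (1.59, SE 0.27, edgeR adjusted p = 0.0293). That call was lost on leaving out any of 4 of the 5 libraries (control replicate 1 or ECL replicate 1, 2 or 3). The inputs held 1.06 to 3.24 CPM in control and 5.10 to 13.6 CPM after ECL, again without overlap (1.84, SE 0.30, edgeR adjusted p = 0.00382).

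In the libraries labelled Synpo-/- the Ube2c groups were closer. In DG control it ran from 2.16 to 6.33 CPM with a median of 2.68, and after ECL it was 6.87, 6.45, 6.86 and 6.55 CPM (log2 fold change 0.94, SE 0.25, edgeR adjusted p = 0.025). In CA3 it was 2.24 to 4.41 CPM in control and 1.86 to 6.25 CPM after ECL, which overlap, and was not called (0.58, SE 0.26, edgeR adjusted p = 0.67). The difference between genotypes in the lesion response was not called in either region: -0.70 in DG (SE 0.35, edgeR adjusted p = 0.478) and -1.05 in CA3 (SE 0.47, adjusted p = 0.259). Without Synpo+/+ DG ECL replicate 5 the DG difference was -0.68 (SE 0.35, edgeR adjusted p = 0.595).

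Ube2l6, the E2 that attaches the interferon-induced modifier ISG15, was called in 3. In Synpo+/+ DG it was 11.3, 9.07, 11.9 and 15.1 CPM in control and 21.7, 26.6 and 38.5 CPM (lowest, median and highest of 7) after ECL, without overlap. Its log2 fold change was 1.21 (SE 0.17, edgeR adjusted p = 0.000688), and 1.11 without replicate 5. In the inputs it went from 53.3 to 73.6 CPM in control to 70.0 to 102 CPM after ECL, overlapping in 1 library of each group (0.50, SE 0.11, edgeR adjusted p = 0.0199). In Synpo-/- DG it was 10.3 to 26.6 CPM in control and 23.5 to 33.2 CPM after ECL (0.62, SE 0.18, edgeR adjusted p = 0.0427).

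In CA3, Ube2l6 was 18.1 and 20.5 CPM in Synpo+/+ control against 26.6, 27.9 and 38.3 CPM after ECL (0.57, edgeR adjusted p = 0.0946), and 21.0 to 34.1 CPM against 13.7 to 34.2 CPM in Synpo-/- (-0.16, edgeR adjusted p = 0.890). Neither was called. Other genes of this modifier, Isg15 itself, its E1 Uba7 and its protease Usp18, were in the pathway lists. Isg15 was called in Synpo+/+ DG (1.54, SE 0.48, edgeR adjusted p = 0.0482) and in the inputs (0.95, SE 0.22, adjusted p = 0.0243), Uba7 in Synpo-/- DG (0.76, SE 0.21, adjusted p = 0.0366) and Usp18 in the inputs (0.49, SE 0.12, adjusted p = 0.0348). They were not called in the other lesion comparisons, where their values ran from -0.09 to 0.99. The Synpo+/+ DG values of these genes include the ECL library with CA3-like markers, and no fit without it is given for them.

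**Figure D5:**
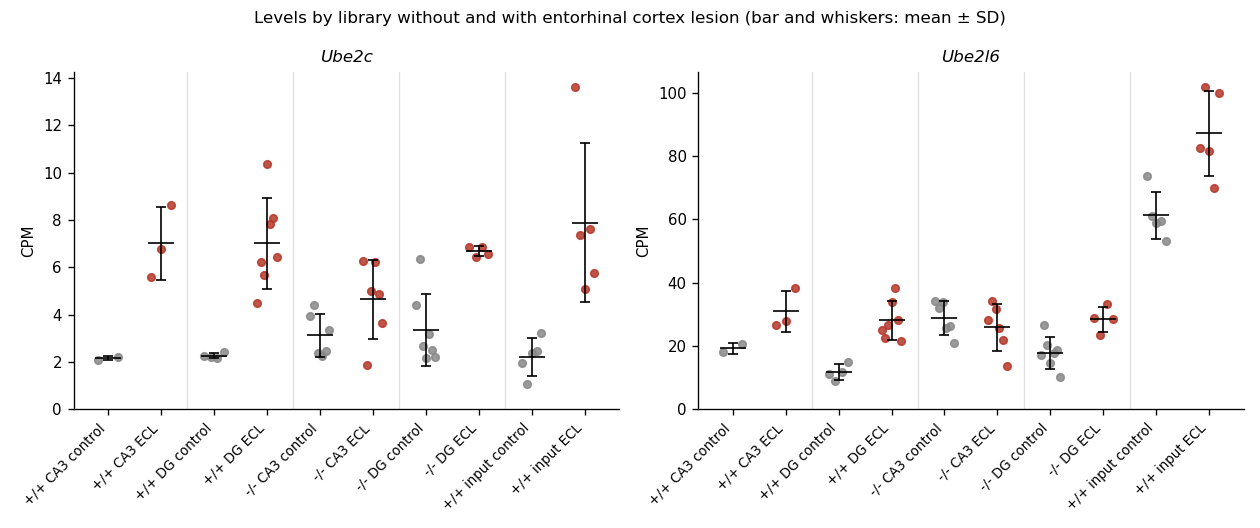
Ube2c (left) and Ube2l6 (right) in CPM, by library, without lesion (grey) and after ECL (red), in CA3 and DG of Synpo+/+ and of the libraries labelled Synpo-/-, and in the Synpo+/+ inputs; bars and whiskers give mean ± SD. Ube2c control libraries in Synpo+/+ DG sit at 2.17 to 2.41 and ECL libraries at 4.499 or above.

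Smaller changes in Synpo+/+ DG included those of Ube2l3 (107 to 132 CPM in control, 137 to 226 CPM after ECL; log2 fold change 0.45, SE 0.13, edgeR adjusted p = 0.0406) and Ube2a, which went from 40.9 to 57.1 CPM to 58.8 to 107 CPM (0.50, SE 0.15, edgeR adjusted p = 0.0422). Ube2l3 and Ube2a did not overlap between groups. The 107 CPM of Ube2a was ECL replicate 5, the library with CA3-like markers, and the next value was 77.9 CPM. Without that library the change of Ube2l3 was 0.35 (edgeR adjusted p = 0.0332) and that of Ube2a 0.37 (adjusted p = 0.0295). Their calls were lost on leaving out any of 7 and 8 of the 11 libraries one at a time, while those of Ube2c and Ube2l6 held in 11 of 11. In Synpo-/- DG, Ube2s, which extends K11-linked chains after Ube2c, rose (0.83, SE 0.24, edgeR adjusted p = 0.0389) and Ube2t fell by 0.64 (SE 0.16, edgeR adjusted p = 0.0195), from 12.0 to 23.9 CPM in control to 11.2 to 14.5 CPM after ECL, which overlap. All 4 calls of Synpo-/- DG were lost on leaving out ECL replicate 1 or 4. Ube2n and Ube2k were not called in any lesion comparison.

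The lesion response of the members was not called as different between genotypes, for 0 of 35 in CA3 (edgeR; 10 at an unadjusted p under 0.05; 1 by DESeq2; 0.0% of genes called) and 0 of 35 in DG (5 at an unadjusted p under 0.05; 0 by DESeq2; 0.00381% of genes called). The medians of the difference, Synpo-/- minus Synpo+/+, were -0.30 and -0.27, against 0.06 and -0.02 over all genes. With the trend of fold change on gene length removed, these medians became -0.09 and -0.10, and those of all genes 0.23 and 0.13. Without Synpo-/- CA3 ECL replicate 6 the CA3 median was -0.23, and without Synpo+/+ DG ECL replicate 5 the DG median was -0.15, with 0 members called in either.

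Markers of other cells were set beside Ube2c and Ube2l6. In Synpo+/+ DG all 14 microglia markers were called higher after ECL, and their sum went from 605 to 833 CPM to 1565 to 1905 CPM. Of 8 proliferation markers 6 were called higher, and their sum went from 91.0 to 112 CPM to 139 to 195 CPM. In Synpo-/- DG 12 of 14 and 5 of 8 were called higher, in the inputs 7 of 14 and 6 of 8, and in Synpo-/- CA3 none. In Synpo+/+ CA3, where Ube2c was called, 2 of 14 microglia markers and 0 of 8 proliferation markers were called higher. The sums there did not overlap between the 2 control and 3 ECL libraries. For microglia the sum went from 646 to 1096 CPM to 1279 to 1720 CPM. For proliferation it went from 119 to 124 CPM to 142 to 201 CPM, and the 8 log2 fold changes ran from 0.05 to 1.28. No marker of either list was at 0 in all libraries of a group, and the part of these cells in the Ube2c and Ube2l6 values was not tested. In Synpo+/+ DG, 7 of 10 astrocyte markers were higher as well.

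Genotype alone was compared in 4 settings. In CA3 control, CA3 ECL, DG control and DG ECL, 0 of 34, 34, 34 and 35 members were called (edgeR; 8, 0, 5 and 1 at an unadjusted p under 0.05; 1, 0, 0 and 0 by DESeq2), where 0.00413%, 0.00891%, 0.0166% and 0.0166% of genes were called. By direction these were 0.00413% higher and 0.0% lower, 0.00445% and 0.00445%, 0.0124% and 0.00414%, and 0.0083% and 0.0083%. The member with the lowest adjusted p was Ube2h, an E2 with roles in erythroid cells, at 0.66 in CA3 control (SE 0.14, edgeR adjusted p = 0.0895), which was named after its values were seen. The medians of the members were 0.23, -0.11, 0.10 and -0.09, and those of all genes -0.02, 0.01, -0.02 and -0.01. Without Synpo-/- CA3 ECL replicate 6 the members' median in CA3 ECL was -0.04, and without Synpo+/+ DG ECL replicate 5 that in DG ECL turned to 0.02, with 0 members called in either.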

How the data were processed

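RNA was sequenced from 63 libraries of mouse tissue cultures. The deposited values are raw counts per gene symbol, which the authors obtained without use of strand (featureCounts 2.0.1, GENCODE annotation of GRCm38) after adapter removal (cutadapt 3.5) and alignment to mm10 (STAR 2.7.8a), with versions as in the submitters' processing notes. The members and all lists were chosen with earlier results of these data known.

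Counts were tested with edgeR 4.0.16 (quasi-likelihood, TMM scaling, filterByExpr; R 4.3.3) over all genes of the groups compared, with Benjamini-Hochberg adjustment and calls under 0.05. The test was checked on simulated data, with a fixed spread between libraries and changes put into well-counted genes. Those changes were larger than the members' changes here, so the check does not cover smaller changes or genes with few counts. CPM are TMM-scaled within each experiment and compared only within it. Depth was 11601154 to 53682143 counts per library, without molecular identifiers, so spread was taken from replicates. No 2 libraries of the same group were alike within sampling noise, and libraries of different groups were not compared in this way. By rule, up to 4 called members per direction and comparison were named by smallest p, up to 2 called genes per pathway list, and values by library were given for the 8 members called most often and for Ube2l6, Ube2c, Ube2n, Ube2m and Ube2k. A single member is counted in the totals but not reported here. Further members, and the library values of Ube2o, Ube2b and Ube2ql1, were added after their values were seen.

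In the Synpo+/+ sets, input and coIP of 1 number were taken to come from the same lysate. In the Synpo-/- inputs the labels cross preparation and replicate numbers, so these libraries were matched by preparation number. Deviations of input and coIP correlated at 0.30 to 0.66 in all 5 control pairs and 0.15 to 0.65 in all 5 ECL pairs. They correlated at 0.088 in the 2 Synpo-/- pairs, where 2 libraries of each kind give only a single value. Other groups share only numbers in their labels, and whether DG and CA3 of 1 number came from 1 culture is not given. Deviations of DG and CA3 correlated at 0.045 to 0.46 over 6 pairs in Synpo-/- control, 5 of them over 0.1. In Synpo-/- ECL they ran from -0.19 to 0.29 over 4 pairs. In Synpo+/+ they ran from -0.38 to -0.18 over 2 control pairs and from -0.15 to 0.31 over 3 ECL pairs. The main regional test did not pair them. Alternatives were DESeq2 1.42.0, other scaling (RLE), no count filter, a mean normalized count over 300, removal of the length trend, replicate blocks, a joint fit of 4 groups and each library left out. GC content was read from the reference genome of the same build.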

Additional observations from a re-analysis of the deposited data

Results flagged for a closer look

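Of 90 groups of 4 to 10 libraries, over 9 members, 9 held a library whose gap to its nearest neighbour was large against the range of its group (Dixon's criterion, which chance meets in about 5% of groups). In Synpo+/+ DG ECL, replicate 5 was the highest for Ube2n (431 CPM, nearest 285), Ube2k (226, nearest 176), Ube2a (107, nearest 77.9) and Ube2m (35.4, nearest 24.8). This is the library whose region markers resembled CA3. In Synpo-/- CA3 ECL, replicate 6 was the lowest for Ube2n (182 CPM, nearest 335) and Ube2k (144, nearest 189). Replicate 1 of the control Synpo+/+ inputs was the highest for Ube2j1 (91.1 CPM, nearest 78.5) and Ube2l3 (349, nearest 321). In Synpo-/- DG ECL, Ube2t was 14.5 CPM in replicate 3, nearest 11.5.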

How the results depend on the processing

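Counts of called members moved as follows, and calls over all genes moved too. DESeq2 against edgeR called 1343 against 397 genes for the lesion in Synpo+/+ CA3 and 1687 against 1007 in the inputs. It called 3915 against 3098 between regions in Synpo-/- ECL and 719 against 1 for genotype in CA3 control. For the lesion by genotype difference in CA3 it called 388 against 0. Calls over all genes under the other settings are not given here, so the counts below are not read as results about the members. For the lesion in Synpo+/+ CA3 the count of 1 became 6 with DESeq2, 11 with no filter on low counts, and 0 with the length trend removed, with all 4 groups of the region in 1 fit or with a mean normalized count over 300. In Synpo+/+ DG 5 became 3 with RLE size factors, 2 with the length trend removed and 9 with all 4 groups. In Synpo-/- DG 4 became 2, and in the inputs 2 became 1, with a mean normalized count over 300, and the inputs gave 6 with DESeq2. The 3 of Synpo-/- ECL between regions became 7 with DESeq2, 5 with RLE and 6 without the length trend. For genotype in CA3 control 0 became 1 with DESeq2 and 1 with no filter, and for the lesion by genotype difference in CA3 0 became 1 with DESeq2. After ECL, Ube2m and Ube2ql1 in the coIP changed sign without the length trend, to 0.034 and 0.015, and were not called. Without that trend the median of all genes was -0.14 for the lesion in Synpo+/+ CA3 and DG, 0.23 and 0.13 for the lesion by genotype difference in CA3 and DG, and 0.10 in the control coIP.

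Outside the coIP, the labels give libraries only a number in common. With the replicate block, Synpo+/+ DG gave 8 members for the lesion, Synpo-/- DG 2, the regions 0 in Synpo+/+ control, 15 in Synpo+/+ ECL and 11 in Synpo-/- ECL, and genotype 7 in CA3 control. In the coIP the numbers were taken to pair lysates, by preparation number in Synpo-/-. There the block added Ube2h and Ube2ql1 in control, Ube2c, Ube2q2 and Ube2d2a after ECL, and Ube2q2 and Ube2cbp in Synpo-/-, and it removed no call.

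Leaving out 1 library at a time gave 0 to 1 called members for the lesion in Synpo+/+ CA3, 2 to 5 in Synpo+/+ DG (2 or 3 without any control library or ECL replicate 1, 3, 4 or 6), 0 to 3 in Synpo-/- DG (0 without ECL replicate 1 or 4, 1 without control or ECL replicate 3, 2 without control replicate 1, 4 or 6) and 1 to 4 in the inputs (1 without ECL replicate 2 or control replicate 2, 4 without ECL replicate 5). Between regions it gave 0 to 3 in Synpo+/+ control (0 without CA3 replicate 1 or 2 or DG replicate 3), 0 to 16 in Synpo+/+ ECL, 8 to 15 in Synpo-/- control (8 without CA3 replicate 5, 9 without DG replicate 4) and 2 to 11 in Synpo-/- ECL (5 without CA3 replicate 2, 2 without CA3 replicate 1, 3, 4 or 5 or DG replicate 1, 2 or 3). For genotype in CA3 control it gave 0 to 1 (1 without Synpo-/- replicate 6), and for the coIP 24 to 25, 24 to 28 and 18 to 25. With Synpo+/+ CA3 control reduced to 1 library, that library was assumed to vary like the others. The cause of these changes was not tested.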
